A study of Homo sapiens with 60 samples.

Results

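GDF15 (ENSG00000130513), the gene of growth differentiation factor 15, is described here across the vehicle and every herbal extract and dose of the series. It is 1 gene of the 60675 in the deposited table, and it was selected on its own measured values, for its large difference between groups. Its levels and differences are therefore given as a description, with no test. RNA was sequenced from SW1783 cells, an established human astrocytoma line, 24 h after treatment. The vehicle was 0.1% DMSO per the sample labels, although the design text of the series gives 2%, and the labels give no DMSO value for the extracts. The treatments were water extracts at 500 µg/mL (high), 100 µg/mL (medium) and 20 µg/mL (low). They were Aconiti Lateralis Radix Preparata (processed aconite root, below Aconiti), Bupleuri Radix (Bupleuri), Cimicifugae Rhizoma (Cimicifugae) and Citri Unshius Pericarpium (Citri), and the formulas Yijung-tang, Banhasasim-tang and Bojungikgi-tang. The vehicle and each dose of the first 6 extracts had 3 libraries, which made 19 groups and 57 libraries, and each dose of Bojungikgi-tang had 1 library. All groups were the same cell line with no genetic change named.

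GDF15 is a secreted, distant member of the TGF-beta superfamily. It is made as a precursor that proprotein convertases such as furin cleave, and the mature hormone signals through GFRAL, a receptor of the hindbrain that acts with the kinase RET to lower food intake. In most tissues the gene is kept low and is induced by cell stress. Known inducers of its transcription include ATF4 and CHOP (DDIT3), which carry the integrated stress response, p53 and EGR1. In this response, kinases that phosphorylate eIF2alpha slow general translation while ATF4 is made, and ATF4 then drives genes of amino acid supply and of stress control.

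Library totals ranged from 18863863.0 to 36410888.0 expected counts. The vehicle carries the sample code set B1, Citri and Cimicifugae set 5, Bupleuri and Aconiti set 6, Yijung-tang and Banhasasim-tang set 7, and Bojungikgi-tang set 8. For a comparison with the vehicle, the effects of code set and extract cannot be told apart, whereas the doses of an extract are of 1 set. The 3 vehicle libraries serve in every comparison with it. Replicate 3 of Citri low and replicate 3 of Cimicifugae high stood apart. Over genes of at least 5 CPM (counts-per-million), their root mean square deviation from the group mean was 0.141 and 0.147 (log2), and no other library exceeded 0.105. The share of mitochondrially encoded counts was 5.14% ± 0.134 (SD, n = 3) in the vehicle, 9.19% ± 0.169 in Aconiti high and 10.7% ± 0.162 in Aconiti medium. Of 11 astrocyte and glioma markers, 6 had a median of at least 1 CPM, among them VIM, CD44, GJA1 and SOX9. The defining astrocyte markers were nearly absent, with at most 0.261 CPM for GFAP, 0.0909 CPM for AQP4, 0.0877 CPM for ALDH1L1 and 0.418 CPM for S100B in any library. The summed level of the 11 was 7370 to 7724 CPM in the vehicle and 7143 to 7181 CPM in Aconiti high. Most of this sum was VIM and CD44. Of the 6, VIM alone had a higher mean in Aconiti high than in the vehicle (4932 against 4366 CPM). CD44 was lower there, at 1994 against 2810 CPM, as were GJA1 (170.1 against 242.7) and SOX9 (55.04 against 70.81). SLC1A3 was at 5.766 against 34.08 CPM and NES at 2.952 against 10.59 CPM. All 4 mesenchymal markers passed 1 CPM, and their summed level was 3920 to 4109 CPM in the vehicle but 1012 to 1067 CPM in Aconiti high. Markers at that level numbered 2 of 6 for neurons, 3 of 5 for microglia and macrophages, 1 of 4 for endothelium, 1 of 4 for oligodendrocytes and 0 of 4 for epithelium.

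RefSeq places GDF15 on chromosome 19 of GRCh38.p14 at 18386158 to 18389176, on the plus strand. The GENCODE 29 model on GRCh38 starts further upstream, at 18374731, because 2 of its 5 transcripts begin there or near it. The standard coding transcript, GDF15-201, has 2 exons and 1200 exonic bases, and the microRNA gene MIR3189 lies within the span of GDF15 at 18386562 to 18386634. The values are per gene, so the transcripts were not told apart. The 250 bases before the RefSeq start are shown because the gene's level moved over such a wide range. They are chr19:18385908-18386157 of GRCh38.p14, plus strand, from RefSeq, with the TATA box and the GC boxes in capitals.

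GDF15 promoter: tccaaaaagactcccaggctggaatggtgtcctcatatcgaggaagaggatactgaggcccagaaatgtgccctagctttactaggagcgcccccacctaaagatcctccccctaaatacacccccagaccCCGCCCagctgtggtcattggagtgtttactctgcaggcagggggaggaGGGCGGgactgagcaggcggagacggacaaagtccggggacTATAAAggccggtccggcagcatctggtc

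The TATA box (TATAAA, sense strand) begins at position -29 from the start, and 6.80% of 35116 RefSeq promoter windows of the same length hold these letters. The Sp1 GC box (GGGCGG, both strands) begins at -119 and -70, and 42.6% of the windows hold it. The E box letters CANNTG occur at -114 and -9, in 61.8% of windows. No match was present in this window for the ATF4 and C/EBP composite element (TGATGNAAN, both strands, 3.13% of windows) or for the CHOP core (TGCAAT, both strands, 7.03%). The same held for the CRE core (TGACG, 21.2%), the AP-1 element (TGANTCA, 6.57%), the EGR1 element (GCGNGGGCG, 8.41%) and the NRF2 core (TGACNNNGC, 10.9%), each on both strands. These are matches of letters in a short window and not measured sites of binding.

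The level of GDF15 was set first against the vehicle in every library. In the vehicle it was 3.12, 4.14 and 4.24 CPM (mean 3.83 ± 0.619 SD, n = 3), from 62, 96 and 83 expected counts. In Aconiti high it was 423.2, 444.0 and 443.7 CPM (mean 437.0 ± 11.9, n = 3), from 7357 to 9903 counts. All 3 libraries lay far above the vehicle, and the ratio of the means was 114. In Aconiti medium it was 48.4, 50.6 and 54.5 CPM (51.2 ± 3.13), a ratio of 13.35. In Aconiti low it was 7.07, 7.29 and 7.79 CPM (7.38 ± 0.368), a ratio of 1.93. The libraries of the 3 doses overlapped neither each other nor the vehicle, and each step of the dose went with a higher level. In cultures measured in bulk, fewer expressing cells and less RNA per cell cannot be told apart, and neither can more of either.

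**Figure D1:**
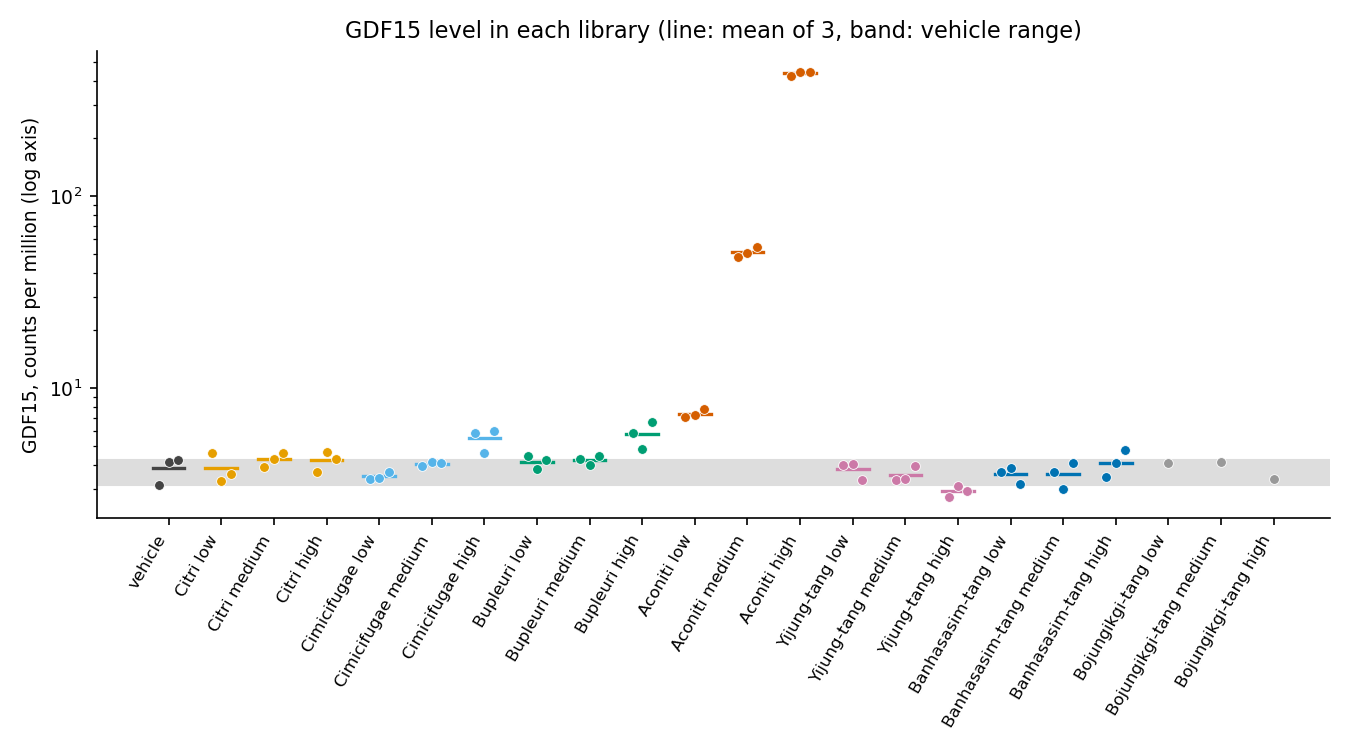
GDF15 level (CPM, log axis) in each of the 60 libraries by group: points are libraries, short lines the mean of 3 libraries, and the grey band the range of the vehicle. The 3 doses of Aconiti run from 7.38 to 51.2 and 437.0 CPM, while every other library sits between 2.71 and 6.63 CPM.

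Outside Aconiti the gene stayed near its vehicle level. The means of the other 15 replicated extract groups ran from 2.90 to 5.77 CPM, and 12 groups had libraries that overlapped the vehicle. Bupleuri high had 4.81, 5.86 and 6.63 CPM (5.77 ± 0.916, ratio 1.505 to the vehicle). Cimicifugae high had 4.602, 5.85 and 5.98 CPM (5.47 ± 0.759, ratio 1.43). The libraries of both lay above every vehicle library. Yijung-tang high had 2.71, 2.91 and 3.08 CPM (2.90 ± 0.183, ratio 0.757), and it was the only one of the 18 extract groups whose libraries all lay below the vehicle's. The margin was narrow, as its highest library, at 3.08 CPM, lay beside the lowest vehicle library at 3.12. The exact 95% counting interval of the former, 2.45 to 3.82, included that value. Citri high, with 3.68, 4.28 and 4.65 CPM, and Banhasasim-tang high, with 3.44, 4.10 and 4.75 CPM, overlapped the vehicle.

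At the medium dose, the means of the other extracts were 4.26 ± 0.348 CPM in Citri, 4.21 ± 0.225 in Bupleuri, 4.04 ± 0.0857 in Cimicifugae, 3.58 ± 0.556 in Banhasasim-tang and 3.54 ± 0.351 in Yijung-tang (SD, n = 3). At the low dose they were 4.14 ± 0.323 CPM in Bupleuri, 3.83 ± 0.679 in Citri, 3.78 ± 0.396 in Yijung-tang, 3.56 ± 0.339 in Banhasasim-tang and 3.48 ± 0.167 in Cimicifugae. All 10 of these groups overlapped the vehicle. The single libraries of Bojungikgi-tang had 3.38 CPM at the high dose (exact 95% counting interval 2.77 to 4.09), 4.14 at the medium dose (3.40 to 4.98) and 4.07 at the low dose (3.39 to 4.85). These intervals cover counting error only, and there is no replicate check for this formula. With the 19 replicated groups ordered by mean, only 5 of the 18 neighbouring pairs had libraries that did not overlap. These were Aconiti high above medium, medium above low, Aconiti low above Bupleuri high, Cimicifugae high above Citri medium, and Cimicifugae low above Yijung-tang high. The other neighbours differed by less than their spread. The coefficient of variation within a group had a median of 9.503% and ran from 2.12% to 17.7%.

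On the log2 scale of the edgeR fit, GDF15 differed from the vehicle by 6.83 ± 0.083 (SE, n = 3 per group) in Aconiti high, 3.73 ± 0.092 in medium and 0.94 ± 0.125 in low. The step from low to medium was 2.80 ± 0.082 and that from medium to high 3.09 ± 0.060, so neither step was much smaller than the other on this scale. Among 11508 genes of at least 5 CPM in either group, GDF15 had the largest positive difference in Aconiti high. It ranked 2 of 11391 such genes in medium and 4 of 11313 in low. Among all 17190 genes tested it ranked 2 in Aconiti high, after TMEM265, which had 0 CPM in the vehicle and 0.733 CPM in Aconiti high. The difference from the vehicle was 0.58 ± 0.128 in Bupleuri high and 0.52 ± 0.128 in Cimicifugae high. It was 0.12 ± 0.136 in Citri high and 0.08 ± 0.134 in Banhasasim-tang high, each smaller than its SE, and -0.40 ± 0.149 in Yijung-tang high. Against the low dose of the same extract, which shares its code set, the high dose of Aconiti differed by 5.89 ± 0.076. That difference was 0.66 ± 0.129 in Cimicifugae, 0.48 ± 0.124 in Bupleuri, 0.19 ± 0.128 in Banhasasim-tang, 0.12 ± 0.134 in Citri and -0.37 ± 0.141 in Yijung-tang. With the pair of libraries that stood apart left out, Cimicifugae high was at 0.45 from the vehicle and 0.59 from its low dose, and Citri high was at 0.076 from its low dose.

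The neighbours of GDF15 on the chromosome were looked at next. PGPEP1, a peptidase gene that ends 4781 bases before the GENCODE start of GDF15, rose by 0.83 ± 0.076 in Aconiti high (adjusted p = 9.85e-14 by the quasi-likelihood test of edgeR, Benjamini-Hochberg method over 17190 genes). It rose by 0.26 ± 0.080 in Aconiti medium (adjusted p = 0.00869) and differed by -0.04 ± 0.082 in low. It also rose in Cimicifugae high (0.41 ± 0.076, adjusted p = 2.97e-05) and in Yijung-tang high (0.23 ± 0.079, adjusted p = 0.0189), where GDF15 itself was at its lowest. LRRC25, 1968 bases after GDF15, had at most 5 expected counts in a library and was not tested, and MIR3189 had 0 in every library.

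The receptor side of the GDF15 pathway was barely measured in these cells. GFRAL had a count in 1 of 60 libraries, of 1 expected count, and RET had 0 to 7 expected counts, so neither was tested. Of 7 genes of the axis, 5 were tested in Aconiti high, with 1 higher and 2 lower at an adjusted p under 0.05. In that comparison 60.4% of all 17190 genes were called, 5413 higher and 4973 lower. MMP14, a membrane protease known to cleave GFRAL, rose by 0.61 ± 0.032 (712 ± 12.1 to 1090.0 ± 25.7 CPM). The convertases PCSK7 and FURIN fell, by 0.49 ± 0.039 and 0.27 ± 0.050. PCSK5 (-0.39 ± 0.307) and PCSK6 (-0.27 ± 0.377) were under 1 CPM and not called. None of the 4 convertases was called higher in these libraries.

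The other ligands of the TGF-beta superfamily were compared with GDF15 in the same libraries. Of 32 such genes, 15 passed the filter on low counts, and in Aconiti high 4 of them rose, 8 fell and 3 were not called. Over all genes 60.4% were called there, 31.5% as rises and 28.9% as falls. The median of the 15 was -0.50, against 0.0056 over all genes. TGFB3 fell by 2.95 ± 0.097 (20.5 ± 1.37 to 2.67 ± 0.309 CPM, adjusted p = 1.11e-30). GDF5, a cartilage and joint factor, fell by 2.46 ± 0.330, and BMP4 fell by 2.34 ± 0.119. TGFB1 and TGFB2 fell by 0.35 ± 0.069 and 0.66 ± 0.070. The rises were those of INHBE, an activin subunit known as an ATF4 target in liver (2.23 ± 0.261), BMP6 (2.10 ± 0.279), GDF1 (0.97 ± 0.337) and BMP2 (0.65 ± 0.203). INHBE went from 0.626 ± 0.0576 to 2.95 ± 0.597 CPM. INHBA, the activin A subunit, differed by -0.01 ± 0.049 in Aconiti high, with 82.4 ± 1.73 CPM in the vehicle. In Banhasasim-tang high INHBA rose by 0.82 ± 0.047 and in Yijung-tang high by 0.62 ± 0.047, while GDF15 was level or lower there. The collagen COL1A1, which leads the mesenchymal markers, went from 3423 CPM in the vehicle to 755.9 CPM in Aconiti high, and its part in these falls was not tested.

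Many genes of the integrated stress response rose with Aconiti, fewer of them at the low dose. Of 26 tested genes of this list, 25 rose and 1 fell in Aconiti high, with a median of 1.75, where 60.4% of all genes were called. In Aconiti medium 25 rose and none fell, with a median of 1.19, where 31.1% of all genes were called. In Aconiti low 13 rose, none fell and 13 were not called, with a median of 0.24, where 2.19% of all genes were called. The count for the low dose ran from 11 to 12 when 1 library was left out. The number of all genes called at the low dose depended more on single libraries, going from 377 to 163 without low replicate 3, 199 without low replicate 2, 190 without vehicle replicate 1 and 205 without vehicle replicate 2. Without the 2 libraries that stood apart it was 574. Against the low dose of the same code set, 25 of the 26 genes rose and 1 fell in Aconiti high, with 57.8% of all genes called. The share of mitochondrially encoded counts was 6.96% ± 0.559 in Aconiti low and, as given above, higher at the other doses, highest in medium. Its part in these results was not tested.

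The members differed widely in size of change. ATF3, a transcription factor made early in stress, rose by 4.74 ± 0.121 in Aconiti high (1.88 ± 0.103 to 50.4 ± 2.33 CPM, adjusted p = 4.15e-35). TRIB3, a pseudokinase that feeds back on ATF4, rose by 4.32 ± 0.056, from 19.3 ± 2.27 to 384.7 ± 2.65 CPM. DDIT3, which encodes CHOP, rose by 3.92 ± 0.083 (25.3 ± 1.92 to 382.5 ± 26.03 CPM). The chromatin protein NUPR1 rose by 3.44 ± 0.075. ATF4 itself rose by 2.04 ± 0.040, PPP1R15A, which restores eIF2alpha function, by 2.95 ± 0.058, CHAC1, which degrades glutathione, by 2.95 ± 0.102, and ASNS, the asparagine synthetase, by 2.89 ± 0.036. SESN2 rose by 2.75 ± 0.054 and STC2, a secreted glycoprotein, by 0.77 ± 0.035. ATF5 fell by 0.41 and was the only member to fall. FGF21, a stress hormone often measured beside GDF15, had at most 2 expected counts in a library and was not tested. Of the 6 genes of the eIF2alpha kinases and the mitochondrial relay, 5 rose in Aconiti high, where 60.4% of all genes were called. With scaling by library size alone, 2 of them were called. OMA1 was at 0.75 ± 0.063 and EIF2AK3 (PERK) at 0.47 ± 0.057 in the main analysis.

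The same dose series ordered the genes differently. In Aconiti low the called members included CHAC1 (0.69 ± 0.124), NUPR1 (0.65 ± 0.092), TRIB3 (0.53 ± 0.063) and ATF4 (0.33 ± 0.041), while DDIT3 (0.29 ± 0.093) and ATF3 (0.27 ± 0.177) were not called. In Aconiti medium CHAC1 was at 2.87 ± 0.102, close to its value in the high dose. The medium-dose difference of GDF15 was 54.7% of its high-dose difference on the log2 scale. That share had a median of 66.6% over the 22 integrated stress response genes that were called and rose by at least 1 in Aconiti high, and it ran from 36.1% in PPP1R15A to 102.4% in JDP2. Over all 874 such genes the median was 42.0%, with quartiles of 29.1% and 55.9%. It was 24.0% over 12 NF-kB targets and 44.4% over 4 genes of the unfolded protein response. These shares describe the groups and were not tested against each other.

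**Figure D2:**
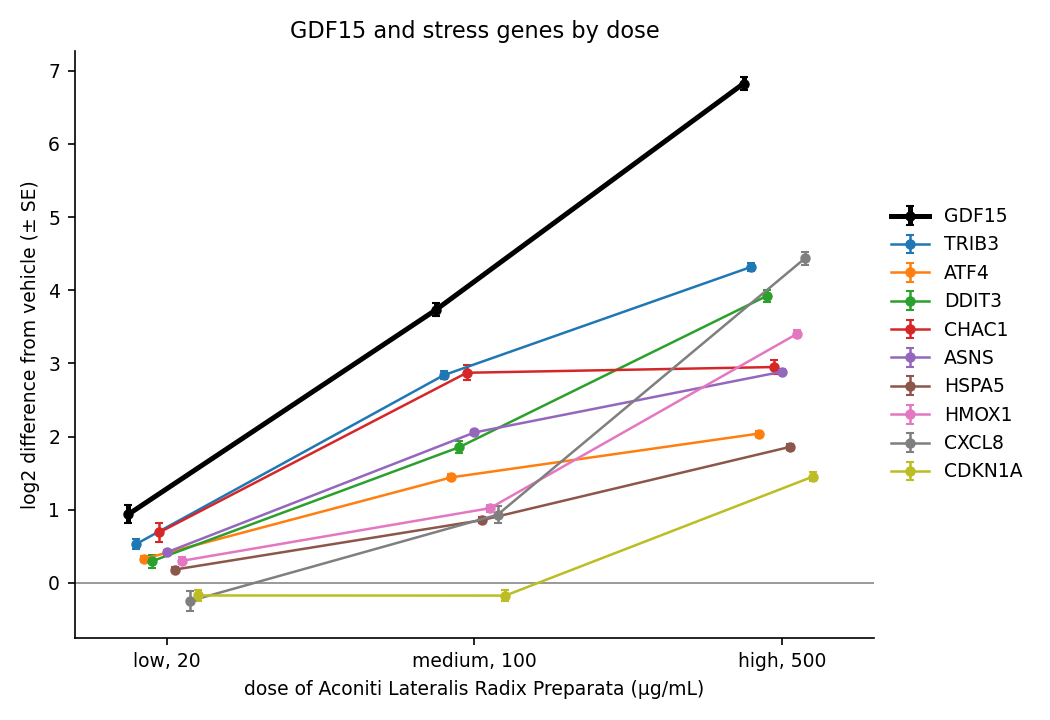
Log2 difference from the vehicle (± SE, 3 libraries per group) at the 3 doses of Aconiti (µg/mL, evenly spaced steps) for GDF15 and 9 stress genes. GDF15 (black) is highest at each dose, CHAC1 is nearly as high at the medium dose (2.87) as at the high dose (2.95), and CDKN1A is above 0 at the high dose alone.

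**Figure D3:**
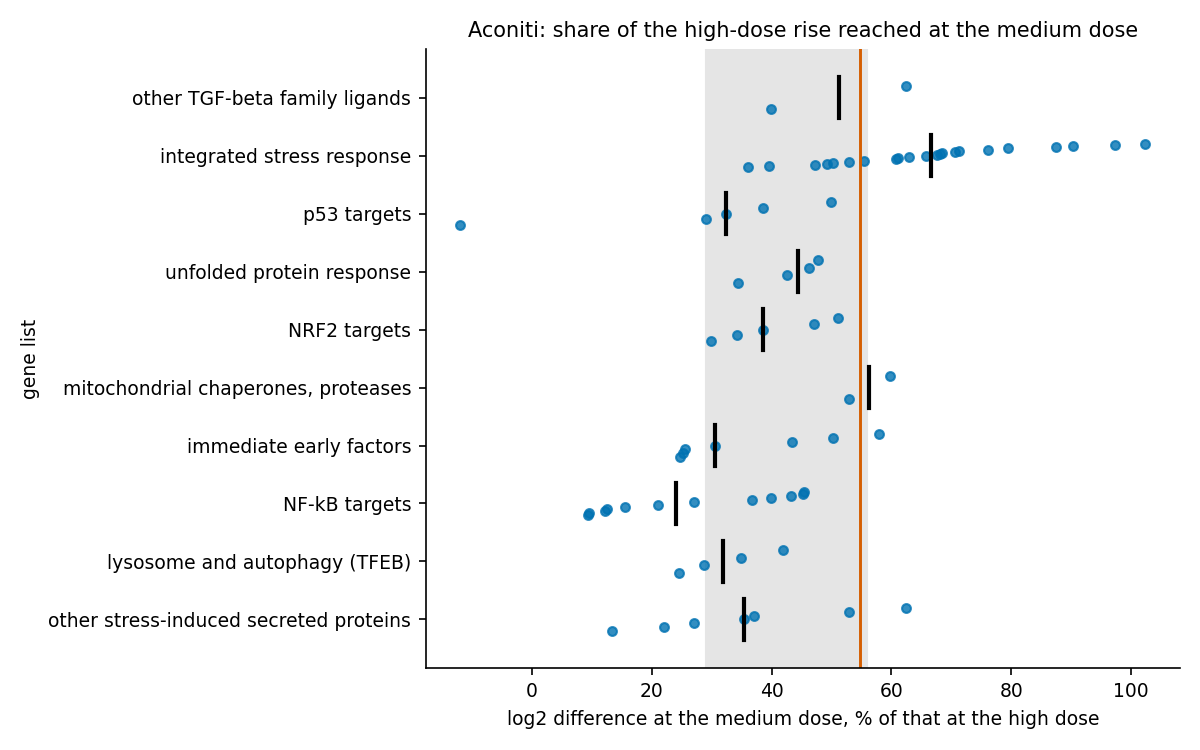
Log2 difference of Aconiti medium as a percentage of that of Aconiti high, for genes that were called and rose by at least 1 at the high dose: points are genes, black bars list medians. The orange line is GDF15 (54.7%), and the grey band holds the middle quartiles of all 874 such genes (29.1% to 55.9%).

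Other stress responses were higher in Aconiti high as well. In that comparison 60.4% of all genes were called, 31.5% as rises and 28.9% as falls. All 16 genes of the unfolded protein response rose, with a median of 0.75, led by HERPUD1 (2.696 ± 0.048), DNAJB9 (1.97 ± 0.067) and the chaperone HSPA5 (1.86 ± 0.037). In Aconiti medium, with 31.1% of all genes called, 15 of the 16 rose, and in low, with 2.19% called, 8 rose. The count in low was 5 with library size alone, and also without vehicle replicate 2 or 3 or without low replicate 2. The NRF2 targets, antioxidant genes, rose in 15 of 17 cases and fell in 2, with a median of 0.48, and HMOX1, the heme oxygenase, rose by 3.41 ± 0.045. Of 17 NF-kB targets tested, 14 rose and 2 fell, with a median of 1.38. The chemokines CXCL3 (5.21 ± 0.229), CXCL2 (5.20 ± 0.259) and CXCL8 (4.44 ± 0.087) led this list. CXCL8 was at 0.93 ± 0.118 in Aconiti medium and -0.25 ± 0.139 in low, where it was not called. Among 14 tested genes of other stress-induced secreted proteins, 11 rose and 2 fell, among them IL6 (3.50 ± 0.118) and LIF (2.20 ± 0.059) upwards.

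The p53 targets moved in both directions in Aconiti. Of 21 tested, 11 rose, 4 fell and 6 were not called in Aconiti high, with a median of 0.29, where 60.4% of all genes were called. With scaling by library size alone 8 rose and 6 fell. BBC3, which encodes the cell death protein PUMA, rose by 3.55 ± 0.294 (0.339 ± 0.142 to 3.97 ± 0.547 CPM). GADD45A rose by 2.41 ± 0.058, and TNFRSF10B, a death receptor also induced by CHOP, by 2.25 ± 0.037. CDKN1A (p21) rose by 1.45 ± 0.064 at the high dose but was at -0.17 ± 0.072 in both medium and low, not called. MDM2 rose by 0.45 ± 0.052 at the high dose. In Aconiti medium 6 of the 21 rose and 4 fell, or 4 rose and 10 fell with scaling by library size alone, where 31.1% of all genes were called in the main analysis. BBC3 (1.77 ± 0.344), GADD45A (0.93 ± 0.060) and TNFRSF10B (0.73 ± 0.039) were among those that rose. In Aconiti low none was called. EGR1, another known activator of GDF15, differed by 0.12 ± 0.105 in Aconiti high, -0.07 ± 0.107 in medium and 0.23 ± 0.104 in low, and it was not called at any dose.

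The scaling of the libraries bears on the direction of calls in Aconiti. With library size alone, the median difference of mean log2 CPM over all genes moved from 0.0051 to -0.118 in Aconiti high and from 0.0028 to -0.111 in medium. The share of calls that were rises went from 52.1% to 36.9% in Aconiti high, from 51.6% to 19.7% in medium, from 52.5% to 21.2% in low, and from 52.6% to 40.0% for high against low. It went from 46.3% to 66.2% in Cimicifugae high and from 45.4% to 66.6% in Citri high. GDF15 was at 6.70, 3.62 and 0.91 in Aconiti high, medium and low under that scaling.

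The high doses of the other 5 extracts were then read for the same gene groups. In Bupleuri high 7.02% of all genes were called, and of 26 integrated stress response genes 8 rose and none fell, with a median of 0.12. TRIB3 rose by 0.36 ± 0.063 (adjusted p = 7.61e-05), ATF4 by 0.22 ± 0.041 and ASNS by 0.26 ± 0.038, while DDIT3 was at 0.07 ± 0.093. Among NRF2 targets 11 of 17 rose and 1 fell, with HMOX1 at 0.51 ± 0.046. Among NF-kB targets 6 of 17 rose and 3 fell. The genes called in Bupleuri high fell from 1206 to 782 without vehicle replicate 1.

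In Cimicifugae high 32.5% of all genes were called. Here 12 of the 26 integrated stress response genes rose and 1 fell, with a median of 0.15, but 7 rose when only the 2 groups were fitted, and 2866 rather than 5592 genes were called in all. The cystine transporter SLC7A11 rose by 0.64 ± 0.053, TRIB3 by 0.47 ± 0.062 and ASNS by 0.46 ± 0.037, while ATF4 was at 0.07 ± 0.041. NRF2 targets rose in 14 of 17 cases and fell in 1, led by FTL (0.89 ± 0.052) and NQO1 (0.87 ± 0.052). CDKN1A rose by 0.31 ± 0.067 and EGR1 by 0.72 ± 0.097.

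In Yijung-tang high, where GDF15 was at its lowest, 32.0% of all genes were called. The integrated stress response list had 6 rises and 3 falls among 26 genes and a median of -0.03, a share of calls near that of all genes. Over all genes 15.3% were called as rises and 16.7% as falls. CEBPB rose by 0.92 ± 0.129 and ATF3 by 0.74 ± 0.163, while DDIT3 fell by 0.28 ± 0.097. TRIB3 was at -0.09 ± 0.066 and ATF4 at -0.06 ± 0.042, not called. The unfolded protein response fell in 12 of 16 genes and rose in none, with HSPA5 lower by 0.63 (SE 0.036) and HERPUD1 falling by 0.42 ± 0.051. HMOX1 rose by 1.87 ± 0.045, with 12 of 17 NRF2 targets up and 1 down. EGR1 rose by 0.90 ± 0.097. EGR1 and HMOX1 also rose in Bupleuri high (EGR1 by 0.44 ± 0.100, adjusted p = 0.00244) and in Cimicifugae high (HMOX1 by 0.76 ± 0.046), where GDF15 lay above every vehicle library.

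In Banhasasim-tang high 16.8% of all genes were called. All 17 NF-kB targets rose, with a median of 1.80, and CXCL8 rose by 4.41 ± 0.086 (adjusted p = 8.96e-39), CXCL1 by 4.26 ± 0.324, CXCL2 by 3.75 ± 0.281 and IL6 by 2.54 ± 0.123. GDF15 was at 0.08 ± 0.134 in the same libraries. Of the integrated stress response genes 14 rose and none fell, with a median of 0.16, among them CEBPB (0.87 ± 0.127), DDIT3 (0.39 ± 0.089), TRIB3 (0.26 ± 0.062) and ATF4 (0.25 ± 0.041). In Bupleuri high, with ATF4 at 0.22 and TRIB3 at 0.36, GDF15 was at 0.58. The difference between the 2 extracts was not tested. In Citri high 21.6% of all genes were called, with 5 integrated stress response genes up and 3 down and a median of 0.04. ATF4 fell by 0.18 ± 0.042, while DDIT4 rose by 0.66 ± 0.077 and CDKN1A by 0.47 ± 0.067. The unfolded protein response fell in 9 of 16 genes, with HSPA5 falling by 0.38 ± 0.036.

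**Figure D4:**
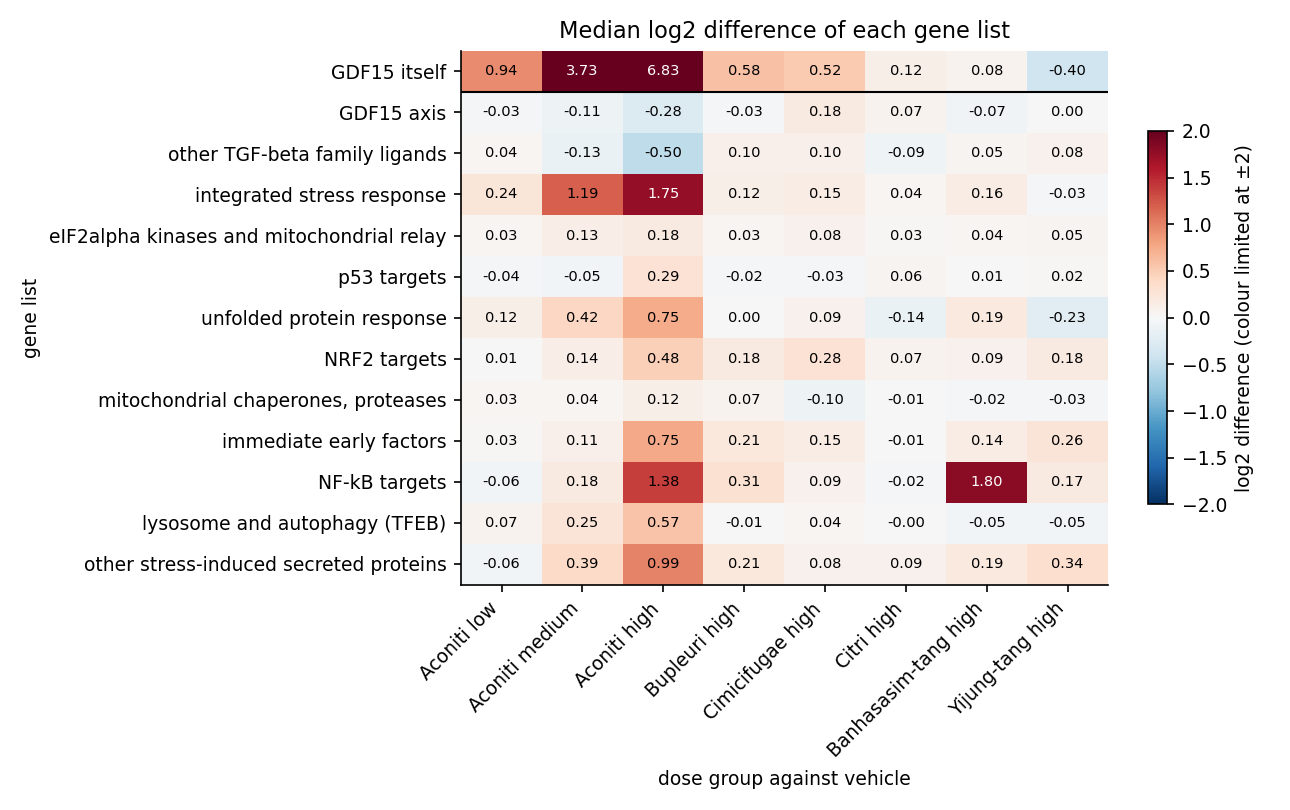
Median log2 difference from the vehicle of 12 gene lists (rows) in 8 dose groups (columns), with GDF15 alone in the top row; colours are limited at ±2. Over the 3 Aconiti doses the median goes up in several lists, among them the integrated stress response (0.24, 1.19 and 1.75), the unfolded protein response (0.12, 0.42 and 0.75) and NF-kB targets (-0.06, 0.18 and 1.38), and the NF-kB list is at 1.80 in Banhasasim-tang high, where GDF15 is at 0.08.

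The likeness of other genes to GDF15 was measured as Pearson's r over the 19 group means of log2 CPM, among 11532 genes with a symbol and at least 5 CPM in their highest group. It is a description with no test: the groups share a vehicle and a cell line, and some share a code set. Aconiti high and medium also lie far from the rest. TRIB3 had the highest value (0.994), followed by GARS1 (glycyl-tRNA synthetase, 0.993), TUBE1 (epsilon tubulin, 0.993), MTHFD1L (mitochondrial folate enzyme, 0.992) and NIBAN1 (0.992). The next were TMEM268, AARS1 (alanyl-tRNA synthetase), LONP1 (mitochondrial protease), CLIP1 and XPOT (tRNA exporter), all at 0.991. In all, 838 genes had an r of at least 0.9 and 593 of at most -0.9, so values of this size were common. Without the 2 groups farthest from the median, Aconiti high and medium, r was 0.916 for XPOT, 0.906 for TRIB3, 0.832 for CLIP1, 0.790 for LONP1 and 0.789 for GARS1. It was 0.781 for AARS1, 0.727 for TUBE1, 0.723 for MTHFD1L, 0.712 for NIBAN1 and 0.662 for TMEM268. XPOT and TRIB3 then held the ranks 1 and 2.

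Over the 16 groups without any Aconiti dose, r was 0.873 for XPOT and 0.852 for TRIB3, ranks 2 and 3 of 11532, and the highest value of any gene was 0.877. It was 0.724 for CLIP1, 0.675 for LONP1 and NIBAN1, 0.664 for AARS1, 0.631 for MTHFD1L, 0.598 for GARS1, 0.578 for TUBE1 and 0.361 for TMEM268. ASNS was at 0.760, ATF4 at 0.197, DDIT3 at 0.415 and ATF3 at -0.0276. TRIB3 and XPOT therefore lay along GDF15 also among groups in which GDF15 differed little. ATF3 did so only with Aconiti high and medium included, and its r was -0.017 without those 2 groups. The 5 lowest values over the 19 groups were those of MCM3 (-0.991), a subunit of the replicative helicase, FBXO5 (-0.991), CCNE2 (cyclin E2, -0.988), ATAD2 (-0.987) and WDR76 (-0.987). MCM3 fell by 1.21 ± 0.037 in Aconiti high and CCNE2 by 1.63 ± 0.087. Without Aconiti they were at -0.763 for MCM3, -0.526 for FBXO5, -0.395 for CCNE2, -0.364 for ATAD2 and -0.259 for WDR76.

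**Figure D5:**
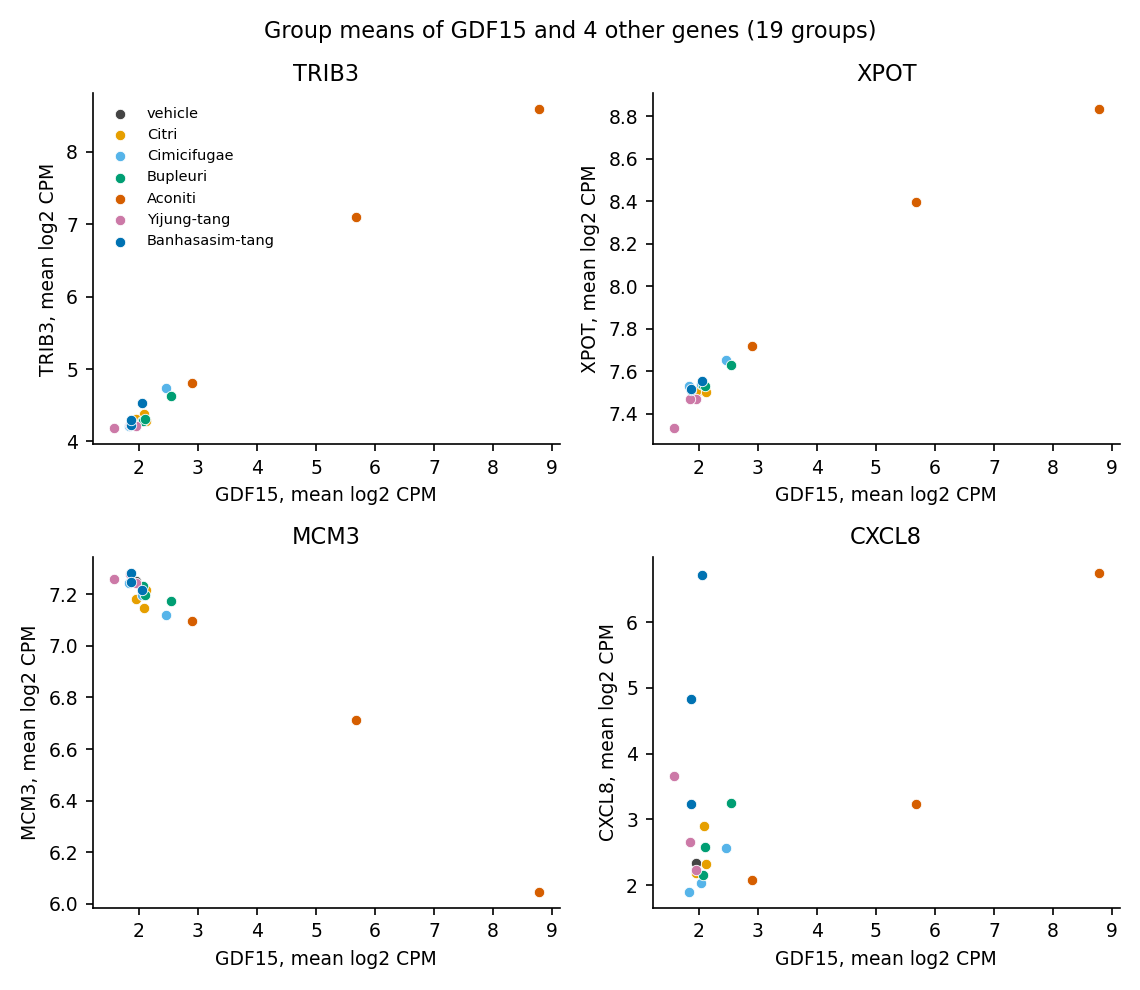
Mean log2 CPM of GDF15 (horizontal) against TRIB3, XPOT, MCM3 and CXCL8 (vertical) in the 19 groups of 3 libraries, coloured by extract. TRIB3 and XPOT lie along GDF15 and MCM3 against it, while the 3 doses of Banhasasim-tang spread in CXCL8 from 3.24 to 6.72 at a nearly constant GDF15.

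By list, the median r over the 19 groups was 0.965 for 26 integrated stress response genes, 0.933 for 15 lysosome and autophagy genes, 0.884 for 16 genes of the unfolded protein response and 0.121 over all genes. The remaining lists lay below 0.884, with 0.725 for other stress-induced secreted proteins, 0.674 for NRF2 targets and 0.665 for immediate early factors. NF-kB targets were at 0.452, p53 targets at 0.361 and the other TGF-beta superfamily ligands at -0.824. Without Aconiti the median was 0.383 for the integrated stress response, 0.27 for NRF2 targets and 0.263 for the unfolded protein response. It was 0.124 for lysosome and autophagy genes, 0.108 for p53 targets, -0.074 for NF-kB targets and 0.0187 over all genes. Among the single genes known to act on GDF15, ATF4 was at 0.971, DDIT3 at 0.985, CDKN1A, as a readout of p53, at 0.675 and EGR1 at -0.384 over the 19 groups. HSPA5 was at 0.945, HMOX1 at 0.767, INHBA at -0.099, CXCL8 at 0.521 and IL6 at 0.658. TGFB1 (-0.662), TGFB2 (-0.674) and FURIN (-0.641) ran against GDF15. CHAC1 was at 0.943, SESN2 at 0.986, PPP1R15A at 0.972, ATF3 at 0.954, MDM2 at 0.788 and STC2 at 0.854. The order of the known regulators and p53 targets did not hold without Aconiti. There the p53 targets MDM2 and CDKN1A were at 0.485 and -0.0245, DDIT3 at 0.415, ATF4 at 0.197 and EGR1 at -0.0106.

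Within groups the likeness was weak. Over the 57 libraries, as deviations from their group means, the highest r of any gene was 0.604 (CAPN15), followed by LRFN4 (0.6), SPEG (0.559), CHKB (0.539), TP53I13 (0.539), BRAT1 (0.535), CROCCP2 (0.535), TMEM132A (0.535), AP5Z1 (0.524) and THTPA (0.516). TRIB3 was at 0.143 there and the integrated stress response list had a median of -0.0576. Outside Aconiti a library held only 52 to 153 expected counts of GDF15, and at 105 counts the interval from counting error alone was already 2.77 to 4.09 CPM. These within-group values are therefore no finding about GDF15.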

How the data were processed

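RNA of SW1783 cells was sequenced in 60 libraries. The tools named in the submitters' processing notes are RSEM 1.3.3, STAR 2.7.3a, FastQC 0.11.9 and Trim Galore 0.6.5, with no roles or settings. The builds named there are GRCh38 and hg38. Neither annotation release nor strand setting is given in the sources used here, and reads of antisense or overlapping genes may not have been told apart. What the authors deposited were per-gene expected counts, estimated by RSEM, of which 9.22% were not whole. All 60 values of GDF15 were whole. Counts were rounded before testing.

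The gene and the gene lists were chosen with earlier results of these data known. A symbol was found for 41210 of the gene identifiers, and 1 list symbol was matched through GENCODE 29. Groups came from the sample labels. The 57 libraries of the 19 groups of 3 were fitted together with edgeR 4.0.16 in R 4.3.3 (filterByExpr by group, 17190 genes, TMM factors, glmQLFit and glmQLFTest). Genes with a p under 0.05 after Benjamini-Hochberg adjustment were called. The SE of a log2 difference was its size divided by the square root of the F statistic. CPM values carry the TMM factors, and the 3 single libraries of Bojungikgi-tang were put on the same scale and entered no test. Log2 CPM for the likeness used a prior count of 2. The script was tested on simulated data. Replicate libraries differed by more than sampling noise (chi-square per degree of freedom 1.74 to 21.9). Separate cultures are not stated in the labels, so the spread behind the p-values may be technical.

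Named genes were GDF15, the 10 most and 5 least alike over groups, the 10 most alike within groups, a fixed set of stress and TGF-beta genes, up to 4 called list members with the largest differences, and the chromosomal neighbours. GDF1, BMP2, TGFB1, ATF5, JDP2, EIF2AK3, TMEM265 and the marker genes are named beside these, after their values were seen, to account for the lists, ranks or sums they belong to. The alternatives were DESeq2 1.42.0, library size alone, no filter, the compared groups alone, each library left out, a replicate block, and, added after seeing the data, leaving out the 2 libraries that stood apart. The sequence window came from the RefSeq promoter table. The protein sequence is not used here.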

Additional observations from a re-analysis of the deposited data

Results flagged for a closer look

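The difference in GDF15 between the high and the low dose of the same extract went in opposite directions in different extracts. It was 5.89 (log2) in Aconiti, 0.659 in Cimicifugae and 0.478 in Bupleuri, and in these 3 extracts every high-dose library lay above every low-dose library. In Yijung-tang it was -0.37, and every high-dose library lay below every low-dose library. The difference between the extracts was not tested, since the gene was selected on these values. The levels outside Aconiti rest on 52 to 153 expected counts per library.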

How the results depend on the processing

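GDF15 kept its direction against the vehicle in the high doses of Aconiti, Bupleuri, Cimicifugae, Citri and Yijung-tang under all alternatives run. In Citri high, however, it ran from 0.0022 to 0.209 when 1 library was left out, and in Banhasasim-tang high from -0.0416 to 0.196. Its value moved by more than the spread between libraries in 1 case, high against low dose of Aconiti, at 5.79 with library size alone. With DESeq2, no filter or a replicate block, each count of called genes stayed within 1.5 times the main one. With the compared groups alone, 2866 genes were called in Cimicifugae high, and 7 of the integrated stress response list. With no filter, 5 genes of that list were called in Citri high rather than 8. Without the 2 libraries that stood apart, 574 genes were called in Aconiti low. With 1 library left out, the range was 163 to 320 in Aconiti low and 782 to 893 in Bupleuri high. The cause was not tested. The replicate numbers gave little sign of pairing the samples, which cannot show that the samples are unpaired. In 0 of 14 pairs of groups were all correlations of same-numbered deviations over 0.1 (they ran from -0.0501 to 0.0588). In 1 of 14 did every library correlate best with its own number, and 19 of the 42 libraries compared did so. The replicate block gave 10460 genes in Aconiti high, 5475 in medium and 446 in low. Of the 15 most and least alike genes, 15 moved by at least 0.1 under Spearman's rho and without Aconiti, 13 without the 2 farthest groups and 0 with library size alone, and none changed sign. Depth limits the small differences: at 52 to 153 counts a library outside Aconiti, the SE was 0.12 to 0.15 on the log2 scale.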

Other observations

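Among 18 immediate early factors, 13 rose and 4 fell in Aconiti high, with a median of 0.75, where 60.4% of all genes were called. IER3, a stress-induced regulator of cell survival, rose by 3.47 ± 0.145, and the transcription factors KLF4 and MAFF rose by 2.78 ± 0.089 and 2.06 ± 0.065, while FOS fell by 1.16. Of 16 lysosome and autophagy genes, 14 rose and 1 fell, led by the GTPase gene RRAGD (3.46 ± 0.324) and the autophagy receptor SQSTM1 (1.98 ± 0.037). In Aconiti medium, with 31.1% of all genes called, 10 of these 16 rose and 1 fell, and in low, with 2.19% called, 2 rose.

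Of 10 mitochondrial stress chaperones and proteases, 4 rose and 2 fell in Aconiti high, with a median of 0.12, a share of calls near the 60.4% of all genes called there, and with scaling by library size alone 4 rose and 4 fell. LONP1 rose by 1.17 ± 0.046 and HSPA9 by 1.13 ± 0.029, whereas HSPE1 fell by 0.53 ± 0.079 and HSPD1 was at 0.01 ± 0.036. FOS and HSPD1 are named after their values were seen.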
